A study of Mus musculus with 9 samples.

Results

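The cytosolic ribosomal proteins on this array were 35 genes, read from the forebrains of 9 male mice. They were taken from a table of 12488 probe sets on Affymetrix U74Av2 arrays, in which a probe set is a group of short probes that reports 1 transcript. A probe set counted if the platform annotation gave it exactly 1 gene symbol, and that symbol was Rpl or Rps with a digit, Rplp or Rpsa. The 3 probe sets of S6 kinase genes were left out, and 49 probe sets remained. Each gene was read from the probe set with the highest 9-array mean. The 35 genes, of 8251 with 1 symbol, held 17 of the large and 18 of the small ribosomal subunit by name. Another 39 probe sets paired a ribosomal protein symbol with other symbols and were not members.

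All mice were C57BL, an inbred laboratory strain, 4 weeks old and housed singly, with 2 weeks of acclimatisation. The clozapine group received clozapine, an atypical antipsychotic, at 12 mg/kg/day in the drinking water for 4 weeks. The haloperidol group received haloperidol, a typical antipsychotic, at 1.6 mg/kg/day by the same route and for the same time, and the control group received no drug. Of 30 animals, 10 per treatment, 3 per treatment were hybridised without pooling, 1 animal per array, to set the long-term profiles of both drugs side by side. The labels disagree on whether the right or the left hemisphere was used. Values are log2 values, so a difference of 1 is a doubling. There is no read depth here, and precision is set by having 3 arrays per group.

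Ribosomal proteins form the ribosome together with ribosomal RNA. The large subunit joins amino acids and the small subunit reads the messenger RNA. Their transcripts are short and abundant in every cell, neurons included. Many of them begin with a run of pyrimidines, the terminal oligopyrimidine tract, through which the mTOR pathway controls their translation. In bulk tissue a lower value can come from fewer cells of a type or from less RNA per cell, and these cannot be told apart.

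The promoters of 28 of the 35 genes were matched by gene identifier in RefSeq's table of GRCm38.p6. The windows shown run from 60 bases before to 20 bases after the first listed start. They belong to members that differed in how they varied between arrays. Rplp0, Rps7, Rps3 and Rpl37a were lower where the arrays' RNA leaned most to the 3′ end, and Rps3a1 and Rpl41 had slopes of the same sign. Rps10 and Rpl7a had slopes close to their error. Rps24 and Rps28 had slopes of the opposite sign in the probe sets used. A second Rps28 probe set had a slope of -0.29, and which transcript the Rps24 probe set reads was not settled.
Rplp0 (chr5:115559407-115559486, + strand): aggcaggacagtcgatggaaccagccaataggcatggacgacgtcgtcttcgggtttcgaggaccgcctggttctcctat
Rps7 (chr12:28635934-28636013, - strand): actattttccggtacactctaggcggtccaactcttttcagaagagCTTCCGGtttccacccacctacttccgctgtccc
Rps3 (chr7:99483690-99483769, - strand): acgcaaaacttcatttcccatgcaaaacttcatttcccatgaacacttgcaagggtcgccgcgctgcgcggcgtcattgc
Rpl37a (chr1:72711200-72711279, + strand): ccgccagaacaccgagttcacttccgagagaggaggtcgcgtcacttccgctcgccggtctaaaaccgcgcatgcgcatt
Rps3a1 (chr3:86142649-86142728, - strand): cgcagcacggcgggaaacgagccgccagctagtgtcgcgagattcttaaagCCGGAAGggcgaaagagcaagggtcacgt
Rpl41 (chr10:128549149-128549228, - strand): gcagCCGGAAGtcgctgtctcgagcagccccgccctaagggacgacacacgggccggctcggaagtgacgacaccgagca
Rps10 (chr17:27635225-27635304, - strand): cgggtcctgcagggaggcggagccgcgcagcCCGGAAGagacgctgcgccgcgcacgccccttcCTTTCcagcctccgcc
Rpl7a (chr2:26910747-26910826, + strand): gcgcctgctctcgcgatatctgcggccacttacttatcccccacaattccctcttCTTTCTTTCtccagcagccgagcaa
Rps24 (chr14:24490618-24490697, + strand): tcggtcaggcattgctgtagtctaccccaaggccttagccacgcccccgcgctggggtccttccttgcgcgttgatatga
Rps28 (chr17:33824543-33824622, - strand): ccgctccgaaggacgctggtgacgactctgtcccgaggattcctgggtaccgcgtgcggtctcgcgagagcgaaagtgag
Capitals mark CCGGAAG, the core bound by ETS factors, on either strand, and CTTTC within 10 bases of the start on the transcript strand.

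Motifs were searched on both strands over the 300 bases from 250 before to 50 after any listed start. CCGGAAG lay in 12 of the 28 matched members, and in 9.93% of the 27025 genes of the table. AAGATGGC, the core bound by YY1, lay in 5 of 28, against 3.19% of genes, and it can overlap CCGGAAG by the letters AAG. TATAAA, the TATA box, lay in 4 of 28, against 15.7%. CTTTC within 10 bases of a start, on either strand, lay in 7 of 28, against 5.53%. On the transcript strand it lay in 6 of 28, against 2.91%. Among the 20 matched members above the filter on low values it lay in 3 on either strand and in 2 on the transcript strand. These are matches of letters only, and the annotated start can lie some bases from the one used in brain.

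The array measured 24 of the 35 members above the filter on low values, a 9-array mean over the 40th percentile of all non-control probe sets, 3.45. They were 13 large-subunit and 11 small-subunit genes. The other 11 were Rps27l, Rpl38, Rpl39, Rpl39l, Rps13, Rps20, Rps14, Rps29, Rps27, Rpl35a and Rps15, with means of 1.40 to 3.14. These 11 entered no test in the main fits, and an alternative with no filter held them. Brightness of different probe sets does not rank transcripts, so levels are compared only within a probe set.

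Among the 24 measured members the SD over the 9 arrays had a median of 0.21, against 0.197 over all 7453 probe sets tested. Rpl13a, whose protein also serves in a complex that silences translation, varied least, with an SD of 0.0512, lower than in all but 2.5% of tested probe sets. It read 8.18, 8.28 and 8.19 in the controls, 8.17, 8.12 and 8.14 with clozapine and 8.13, 8.15 and 8.24 with haloperidol. Rps4l, a paralog of Rps4x, and Rpl32, of the large subunit, varied most, with SDs of 0.449 and 0.43 and low signals of 5.24 and 4.67. The lowest array was control 3 for 8 of the 24 members and haloperidol 1 for 6. The highest was haloperidol 3 for 9 and control 1 for 6.

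**Figure D1:**
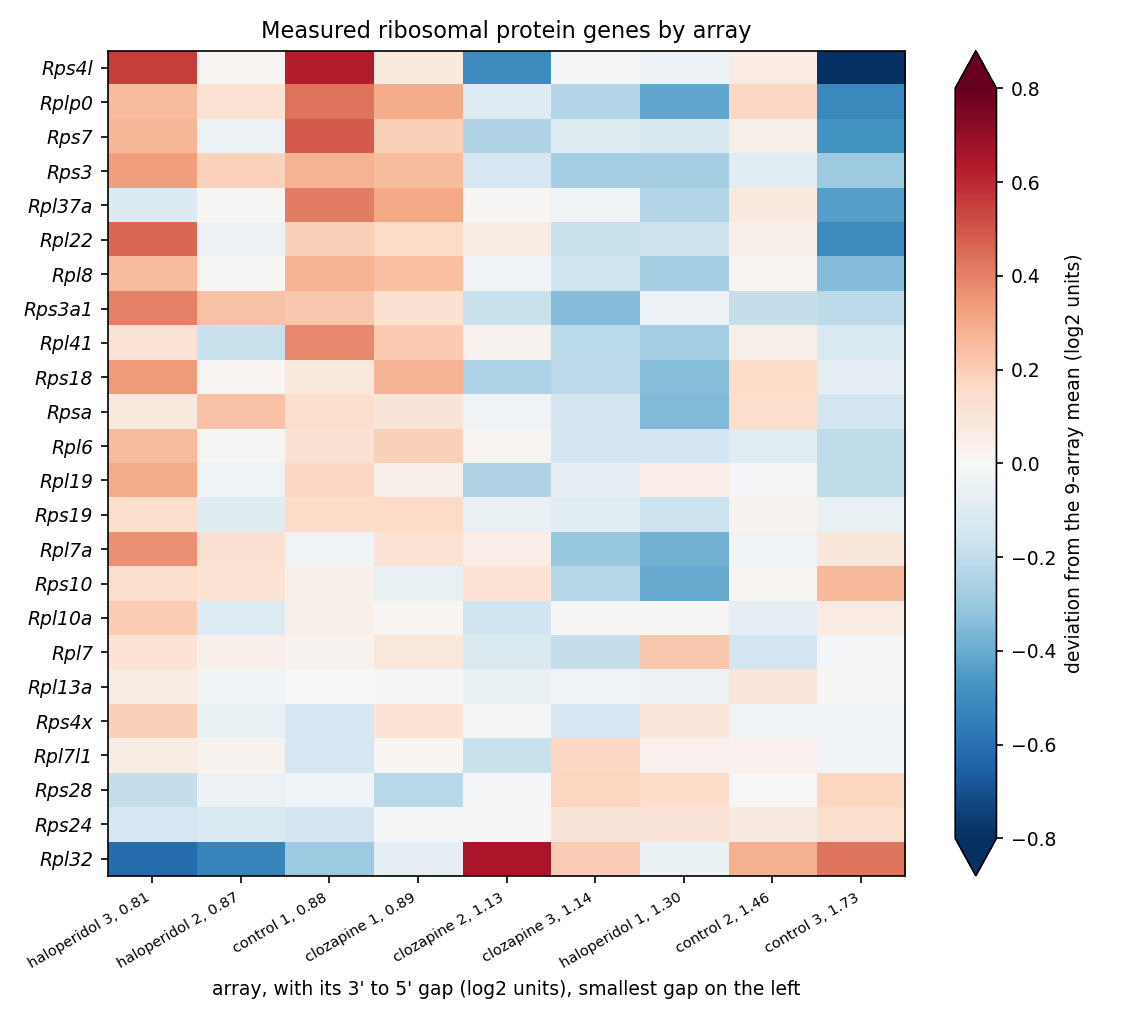
Deviation of each of the 24 measured members (rows) from its 9-array mean, in log2 units, in each array (columns), with arrays in order of their 3′ to 5′ gap and members in order of their slope on it. The arrays with the smallest gaps, 0.81 to 0.89, are mostly red in the upper rows, and control 3, with the largest gap of 1.73, is blue there and red in Rpl32.

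With clozapine no member passed the adjusted threshold, and no member had an unadjusted p under 0.05. Limma, which fits 1 model to all probe sets, made 0 calls among 7453 (0%) with the adjusted p held to 0.05. Without adjustment 70 (0.939%) had a p under 0.05, 0.443% above and 0.496% below the controls. Of the 24 members 8 lay above the controls, against 49.5% of all tested probe sets, and the median difference was -0.05, against -0.0013 over all. The differences ran from -0.16 to 0.12.

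The member with the lowest p with clozapine was Rps10, a protein of the small-subunit head. Rps10 read 11.48, 11.46 and 11.70 in the controls and 11.38, 11.56 and 11.21 with clozapine. The groups overlapped, and the difference was -0.16 ± 0.17 (SE, n = 3 per group; 95% confidence interval -0.54 to 0.22; limma adjusted p = 1). Rpl13a was the member whose 3 clozapine arrays all lay below the 3 controls, 1 of 24, where 3.43% of all tested probe sets had groups that did not overlap (1.27% above, 2.16% below), and its difference was -0.07 ± 0.07. Rps18, a small-subunit head protein, differed by -0.12 and Rpl41, a very short peptide of the large subunit, by -0.09. On the other side Rpl6 differed by 0.08, Rps4x, the X-linked small-subunit protein, by 0.05, Rpl22, an RNA-binding protein of the large subunit, by 0.11 and Rpl32 by 0.12. Each of these had an adjusted p of 1.

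With haloperidol no member passed either, and the 24 members split between both sides. Among the 7453 probe sets limma made 0 calls (0%). Without adjustment 680 (9.12%) had a p under 0.05, 2.05% above and 7.07% below the controls, none of them the probe set that stood for a member. Of the members 13 lay above the controls, against 46.4% of all tested probe sets. Their median difference was 0.02, with a range of -0.54 to 0.26. The shares over all tested probe sets differed with brightness. Of the 1863 brightest 1106 lay above the controls, and of the 1864 dimmest 354. The 527 probe sets below the controls at an unadjusted p under 0.05 included 371 of the dimmest.

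Rpl32 had the lowest p with haloperidol. It read 4.39, 4.96 and 5.10 in the controls and 4.62, 4.14 and 4.06 with haloperidol. Only haloperidol 1 fell inside the range of the controls, and the difference was -0.54 ± 0.26 (SE, n = 3 per group; 95% confidence interval -1.13 to 0.05; limma adjusted p = 0.54). The signal was low, and over the 9 arrays it followed the mean of the 11 unmeasured members with a Pearson r of 0.822, given as a description. Rpl7, of the large subunit, was the member whose haloperidol arrays all lay above the controls, 1 of 24. Of all tested probe sets 21.7% had groups that did not overlap (2.29% above, 19.4% below), a share not counted by brightness. Rpl7 read 12.22, 12.05 and 12.18 in the controls and 12.41, 12.23 and 12.30 with haloperidol, a difference of 0.17 ± 0.10 (limma adjusted p = 0.626).

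Rps3a1, a small-subunit protein near the exit of the messenger RNA channel, differed by 0.26 ± 0.18 with haloperidol, Rps4x by 0.14 and Rpl19, of the large subunit, by 0.12. Below the controls lay Rpl41 at -0.21 ± 0.17, Rps10 at -0.16 and Rps19, a small-subunit protein whose loss in people causes Diamond-Blackfan anaemia, at -0.08. The adjusted p of these 6 members lay between 0.673 and 0.861. With each array centred on its median, 20 of 24 members lay above the controls instead of 13, while the median over all tested probe sets moved from -0.0185 to 0.085. The probe sets with an unadjusted p under 0.05 moved from 153 above and 527 below to 405 above and 152 below. With quantile normalization 12 of 24 members lay above. With the 3′ to 5′ gap as a covariate the members' median was -0.14.

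Between the drugs no member passed, and the doses differ. Limma again made 0 calls among 7453 (0%). Without adjustment 271 (3.64%) had a p under 0.05, 2.98% above and 0.657% below, and 1 of 24 members was among them, Rpl32. Rpl32 read 4.60, 5.33 and 4.87 with clozapine and was 0.66 ± 0.26 higher than with haloperidol (95% confidence interval 0.07 to 1.25; limma adjusted p = 0.915). Clozapine 1 lay within the range of haloperidol 1, 2 and 3. No member had groups that did not overlap, against 17.1% of all tested probe sets (15.2% above, 1.96% below), a share not counted by brightness.

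Rpl37a, a zinc-binding protein of the large subunit, was 0.21 ± 0.21 higher with clozapine, Rpl41 0.12 and Rps24 0.08. Rps3a1 was at -0.33 ± 0.18, Rps4l at -0.32 ± 0.35, Rpl7 at -0.19 ± 0.10 and Rpl19 at -0.19 ± 0.13. Of the 24 members 8 were higher with clozapine, against 56.4% of all tested probe sets, with a median of -0.04. That share differed with brightness: 847 of the 1863 brightest tested probe sets were higher with clozapine, and 1514 of the 1864 dimmest. With the arrays centred 3 of the 24 members were higher, and with quantile normalization 11. With centring the median over all tested probe sets moved from 0.0258 to -0.0733. The unadjusted calls moved from 222 above and 49 below to 25 above and 192 below. Without haloperidol 2 and haloperidol 3 together the members' median was 0.18. The moderated F test of limma over the 3 groups made 0 calls (0%), with 251 (3.37%) at an unadjusted p under 0.05 and none of them a member.

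**Figure D2:**
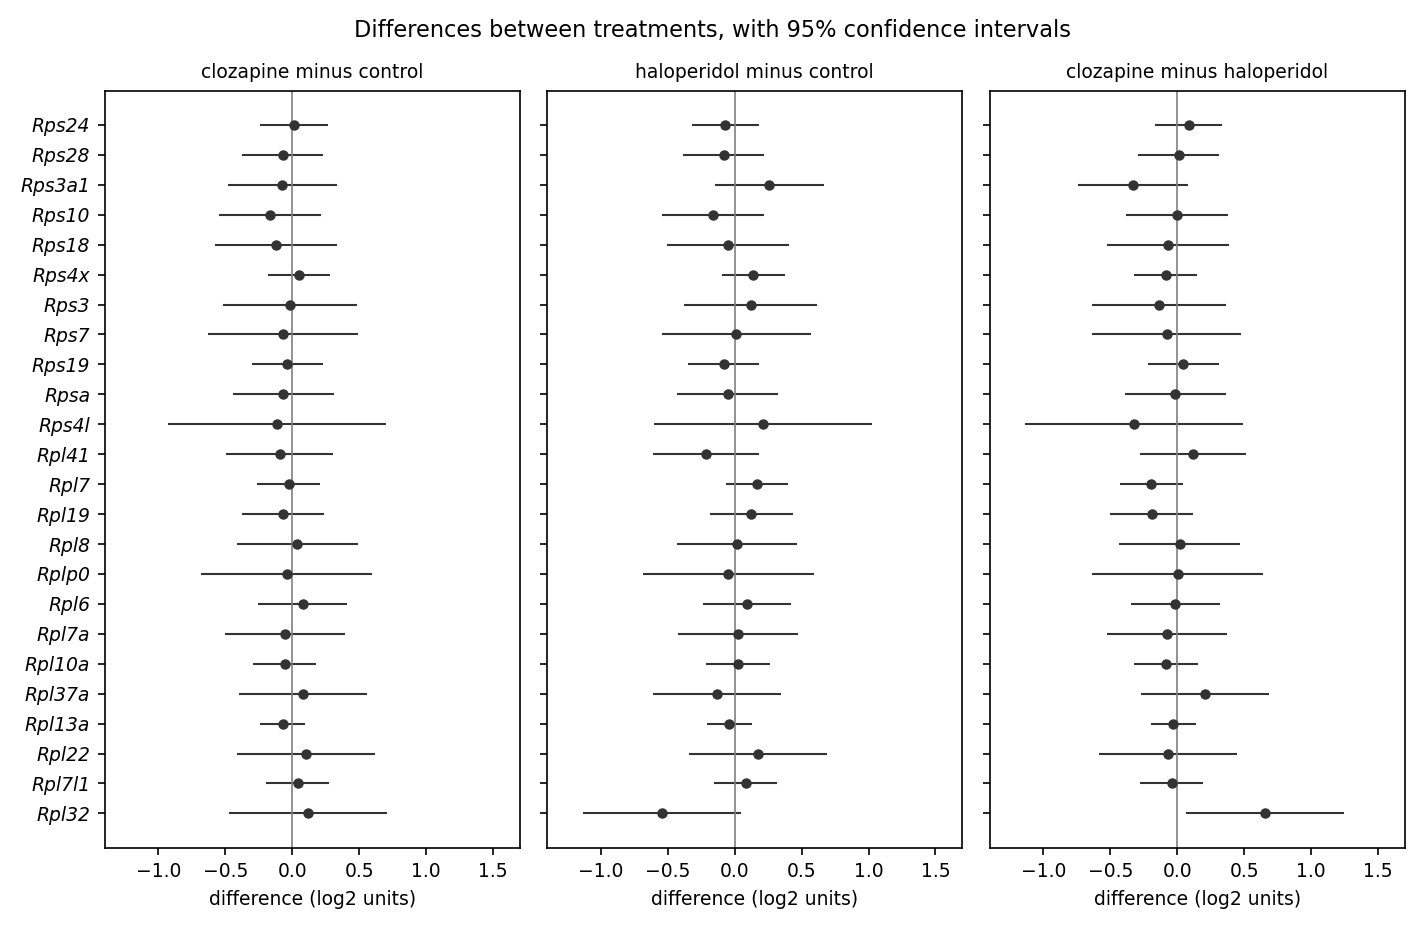
Differences between treatments for the 24 measured members, in log2 units, as points with 95% confidence intervals from limma (3 arrays per group). All intervals include 0 except that of Rpl32 for clozapine minus haloperidol, 0.07 to 1.25, whose adjusted p was 0.915.

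The members were also set against the 3′ to 5′ gap of the arrays, in a separate fit. The gap is the log2 value of the 3′ minus that of the 5′ control probe set, averaged over Actb and Gapdh, the genes of a cytoskeletal actin and a glycolytic enzyme. A larger gap means that the labelled RNA leans more to the 3′ end of transcripts. It was 0.88, 1.46 and 1.73 in control 1, 2 and 3, 0.89, 1.13 and 1.14 in clozapine 1, 2 and 3, and 1.30, 0.87 and 0.81 in haloperidol 1, 2 and 3. The ranges of the 3 groups overlapped, with means of 1.36 ± 0.43, 1.05 ± 0.14 and 0.99 ± 0.27 (SD, n = 3).

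A slope on the gap, in log2 units per unit of gap, was fitted within treatments for all probe sets. Limma called 532 of 7453 (7.14%) with the adjusted p held to 0.05, and 6 of 24 members were among them. Of these Rplp0, Rps7, Rps3, Rpl37a and Rpl8 fell as the gap grew, and Rpl32 rose. The slope was above 0 for 5 of 24 members, against 51.8% of all tested probe sets, and the median slope was -0.45, against 0.0162. An unadjusted p under 0.05 was reached by 2 members above and 11 below, 13 of 24, against 10.9% and 18.5%, together 29.4%, of all tested probe sets. Slope calls were more frequent among bright probe sets, and the mean of the 24 members was 9.91 to 10.21 by array. Of the 1863 brightest tested probe sets limma called 94 above and 131 below, with a median slope of -0.05. Of the 1864 dimmest it called 9 above and 21 below. At an unadjusted p under 0.05 the counts were 332 and 455 among the brightest, and 67 and 104 among the dimmest. The members were not tested against probe sets of like brightness.

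Rplp0 is the base of the stalk that brings elongation factors to the ribosome. It read 11.26, 10.998 and 10.32 in the controls, 11.13, 10.72 and 10.60 with clozapine and 10.41, 10.95 and 11.08 with haloperidol. In each treatment the array with the largest gap had the lowest value. The slope was -1.16 ± 0.21 (SE; limma adjusted p = 0.0352).

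Rps7, a small-subunit protein, read 11.24, 10.80 and 10.27 in the controls, 10.95, 10.51 and 10.65 with clozapine and 10.62, 10.71 and 11.02 with haloperidol. Control 3 was the lowest of the 9 arrays and control 1 the highest. Its slope was -0.98 ± 0.20 (limma adjusted p = 0.0414). Rps3, which lines the entry of the messenger RNA channel, read 11.14, 10.77 and 10.57 in the controls, 11.12, 10.73 and 10.59 with clozapine and 10.60, 11.05 and 11.20 with haloperidol. The 4 arrays with gaps of 0.81 to 0.89 all lay above the other 5, and the slope was -0.88 ± 0.18 (limma adjusted p = 0.0409).

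Rpl8 sits next to the centre that forms peptide bonds. It read 11.22, 10.97 and 10.60 in the controls, 11.19, 10.92 and 10.79 with clozapine and 10.69, 10.96 and 11.20 with haloperidol, with a slope of -0.79 ± 0.17 (limma adjusted p = 0.0429). Control 1, haloperidol 3 and clozapine 1 were its highest arrays and control 3 the lowest. Rpl37a read 9.48, 9.15 and 8.63 in the controls, 9.37, 9.08 and 9.04 with clozapine and 8.83, 9.08 and 8.96 with haloperidol, with a slope of -0.82 ± 0.19 (limma adjusted p = 0.0467). Control 3 was the lowest array, and haloperidol 3, with the smallest gap, lay below its 9-array mean.

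Rpl32, with the values given above, rose with the gap by 1.02 ± 0.23 (limma adjusted p = 0.0464). Haloperidol 3 and 2, with the smallest gaps, were its lowest arrays, and clozapine 2 the highest.

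**Figure D3:**
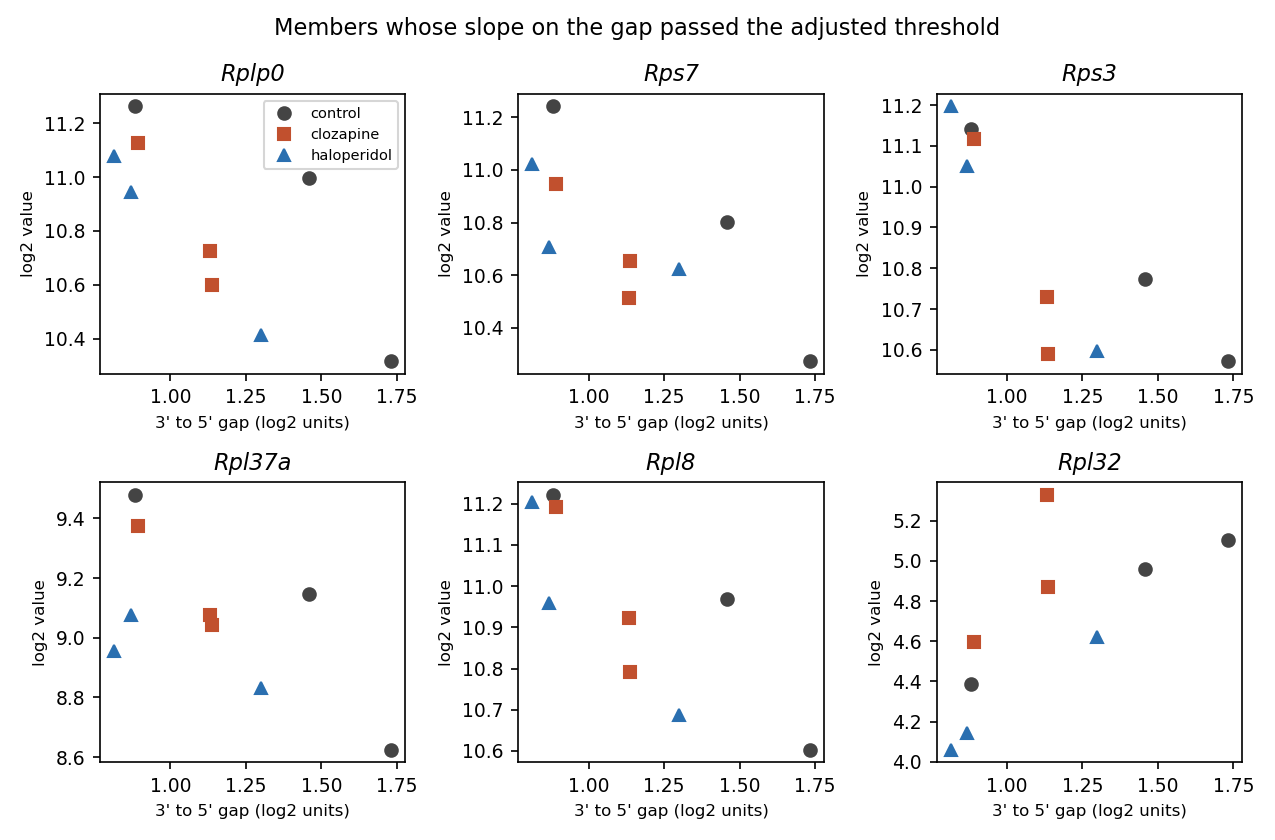
Log2 values of the 6 members called for the slope against the gap in log2 units; each point is 1 array, with circles for control, squares for clozapine and triangles for haloperidol. Values fall from left to right in Rplp0, Rps7, Rps3, Rpl37a and Rpl8, and rise in Rpl32, and the treatments lie mixed.

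The count of called members depended on single arrays and on the form of the fit, while the signs of the 6 slopes did not. It was 0 of 24 without clozapine 1, clozapine 2, haloperidol 3, control 1 or control 3, 1 without clozapine 3 or haloperidol 1, 7 without control 2 and 10 without haloperidol 2. The share of all tested probe sets called moved with it, from 0% to 15.5%. The 6 members were picked by their slopes in these same arrays, so a kept sign is no separate support. Their slopes kept their sign in every alternative that held them, 25 for Rplp0 and 23 for Rpl32. With 1 array left out Rplp0 ranged from -1.63 to -0.98 and Rpl32 from 0.94 to 1.19. With array weights 0 members were called, and 1 of all 7453 tested probe sets. With the replicate number as a block 0 members and 0 probe sets were called. With no filter 1 of 35 members was called, against 193 of 12422 probe sets. With the Gapdh gap alone 0 members were called, against 0% of all tested probe sets. With the Actb gap alone 4 of 24 were called, against 6.59%, and with no group terms 2 of 24, against 11.5%.

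Further members with lower values at larger gaps did not pass. Rps4l had a slope of -1.37 ± 0.33 (limma adjusted p = 0.0507), Rpl22 -0.79 ± 0.25, Rps3a1 -0.68 ± 0.17, Rpl41 -0.64 ± 0.18, Rps18 -0.54 ± 0.27, Rpsa, the small-subunit protein also known as the laminin receptor, -0.52 ± 0.20, and Rpl6 -0.50 ± 0.16. Rps4l had the widest values, 5.87, 5.31 and 4.44 in the controls alone. Rpl19 had a slope of -0.39 ± 0.18, Rps19 -0.35 ± 0.15, Rpl7a -0.34 ± 0.30 and Rps10 -0.15 ± 0.28.

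Other members were nearly flat or ran the other way. The 95% confidence interval of the slope was -0.32 to 0.27 for Rpl13a, -0.46 to 0.35 for Rpl7, -0.47 to 0.34 for Rpl10a, which forms a mobile stalk at the exit site, -0.35 to 0.45 for Rps4x and -0.30 to 0.50 for Rpl7l1, a nucleolar paralog of Rpl7. Rps24 had a slope of 0.39 ± 0.12 (limma adjusted p = 0.0802), with 13.00, 13.22 and 13.29 in the controls. Rps28 had a slope of 0.38 ± 0.18, with 12.56, 12.59 and 12.76 in the controls. Both are proteins of the small subunit.

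**Figure D4:**
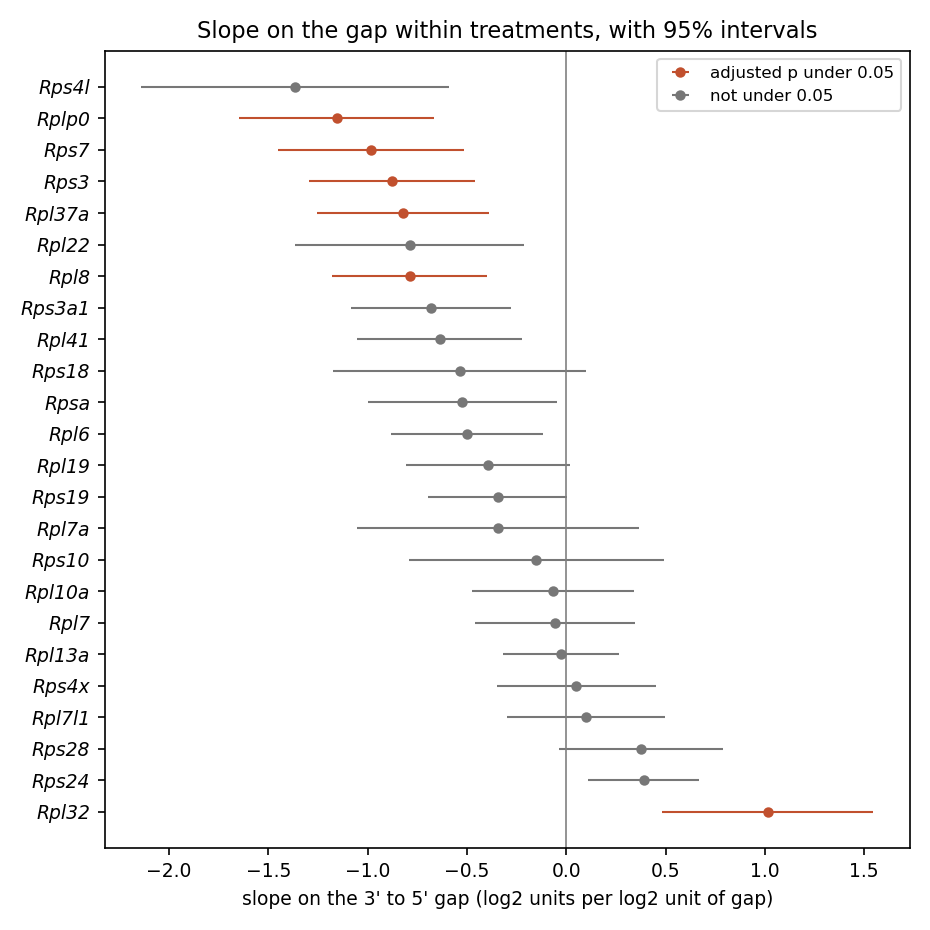
Slope of each of the 24 measured members on the 3′ to 5′ gap within treatments, in log2 units per log2 unit of gap, with 95% confidence intervals; coloured points are the 6 with an adjusted p under 0.05. Most points lie left of 0, from -1.37 for Rps4l, and Rpl32 lies farthest right at 1.02.

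The large-subunit members had a median slope of -0.39, with 11 of 13 below 0, and the small-subunit members one of -0.52, with 8 of 11 below 0. Their difference was not tested. The mean of the 24 members, relative to the 9-array mean, was 0.14, 0.03 and -0.14 in control 1, 2 and 3, 0.11, -0.06 and -0.10 in clozapine 1, 2 and 3, and -0.13, -0.01 and 0.16 in haloperidol 1, 2 and 3. Across the 9 arrays it correlated with the gap at -0.711 (Pearson) and -0.75 (Spearman), given as a description, and at -0.894 and -0.893 without control 2 and control 3, the arrays farthest from the median gap. Haloperidol 2 had a small gap of 0.87 and yet a member mean of -0.01.

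Of the members 10 had more than 1 probe set. The unused ones of Rpl7 and Rps24 lay below the filter, with means of 3.11 and 1.82. Those of Rpl19, Rpl22 and Rps4l lay below it too. Second probe sets above the filter did not always follow the first. In Rpl10a the probe set used had a slope of -0.07 and the dimmer one -0.70. In Rps28 they had 0.38 and -0.29, and in Rps4x 0.05 and 0.54, the last at a low signal of 4.31. That second Rps4x probe set was at -0.44 ± 0.17 with haloperidol (limma adjusted p = 0.53), where the first was at 0.14. The annotation gives the same source accession for the probe sets of Rpl7 and Rps24, so which transcript each reads was not settled. Probe sets named with the suffixes f, s, r or i, which stand for shared or less specific probes, read Rpl10a, Rpl41, Rpl7, Rps28, Rps24, Rps4l and Rpl32. Without such probe sets, 5 of 19 members tested were called for the slope, against 470 of 5988 probe sets (7.85%).

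Of the 39 probe sets with a ribosomal protein symbol among several, which the members do not include, 31 passed the filter. Their slopes had a median of -0.27, with 20 below and 11 above 0, and 2 were called, both below, against 7.14% of all tested probe sets. An unadjusted p under 0.05 was reached by 2 above and 10 below, against 10.9% and 18.5% of all tested probe sets. Their median difference was -0.05 for clozapine and 0.10 for haloperidol against the controls, and 0 were called by limma. At an unadjusted p under 0.05 there were 0 for clozapine, and 1 above and 1 below for haloperidol. Over all tested probe sets the shares were 0.939% for clozapine, and 2.05% above and 7.07% below for haloperidol. Their mean by array had a Pearson r of -0.621 with the gap.

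In 7 lists of genes that work with the ribosome or resemble its proteins, limma made 0 calls for either drug, while some genes had slopes on the gap. The members of these lists partly overlap. The counts of called slopes stand beside 7.14% over all tested probe sets, and those of the initiation factors, 2 of 30, and of the mitochondrial ribosomal proteins, 4 of 55, were close to it. Of 8 measured genes in the list of elongation factors, which also holds Tpt1 and Eef2k, 0 were called for the slope, with a median of -0.21. Eef2, the translocase, had -1.09 ± 0.26 (limma adjusted p = 0.0507). With haloperidol Eef1g, of the complex that recharges the elongation factor, was at -0.46 ± 0.14 (limma adjusted p = 0.53). It was the 1 elongation factor with an unadjusted p under 0.05. Its signal was low, 3.79 to 4.66 by array, with the filter at 3.45. With haloperidol 1510 of the 1864 dimmest tested probe sets lay below the controls, 371 of them at an unadjusted p under 0.05. Over all tested probe sets 7.07% lay below at that level. Whether the Eef1g difference exceeds this shift of dim probe sets was not tested. Of 30 genes in the list of initiation factors, which also holds Eif4ebp2, 2 were called, both rising with the gap. Eif3j1 rose by 1.46 ± 0.28 and Eif2s2, a subunit of the factor that brings the initiator tRNA, by 0.90 ± 0.19. The median over the 30 genes was 0.03.

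Of 35 ribosome assembly genes Bysl, of small-subunit maturation, rose by 2.34 ± 0.27 and Gar1, of the RNA pseudouridylation complex, fell by 0.91 ± 0.20, and the median was -0.06. Of 55 mitochondrial ribosomal proteins 4 were called, all falling: Mrps34 by 1.11, Mrps17 by 1.07, Mrpl34 by 0.84 and Mrpl2 by 0.63, with a median over the list of -0.17. Without adjustment 1 of the 55 mitochondrial genes had a p under 0.05 with clozapine and 3 with haloperidol, all above the controls. Of all tested probe sets 0.939% reached that level with clozapine (0.443% above) and 9.12% with haloperidol (2.05% above). With haloperidol Mrps15 was at 0.50 ± 0.13 and Mrps22 at 0.51 ± 0.15 (limma adjusted p = 0.53 for both). Other transcripts with the pyrimidine tract had 14 measured members, 0 called and a median slope of -0.09. The 5 measured ribosome-associated genes had slopes of 0.04 to 0.39. The 7 measured S6 kinase and mTOR genes had a median of -0.34, with Tsc2, a brake on mTOR, at -0.96 ± 0.25, and 0 called in both lists.

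Some arrays stood apart in ways that touch these values. In haloperidol 2 the 18S ribosomal RNA control probe sets read 8.97 to 10.88, against at most 2.83 in the controls. In haloperidol 3, the array with the highest value of 9 members, 5 of 8 anterior pituitary markers were high, with Gh, the growth hormone gene, at 12.57 and Prl, the prolactin gene, at 11.76, while Lhb, Fshb and Ghrhr read 0.79 to 2.72. The summed pituitary markers ran from 5.45 to 13.44 with haloperidol, 5.47 to 5.66 with clozapine and 5.52 to 5.62 in the controls. Their part in the members' values was not tested. Neuron markers were above the filter in 8 of 8 cases and astrocyte markers in 5 of 5, as the forebrain label implies. Their sums ran from 13.97 to 14.34 and from 11.91 to 12.57. The slopes on the gap of these and other marker lists follow. Their counts stand beside 7.14% called over all tested probe sets. At an unadjusted p under 0.05 the shares over all were 10.9% above and 18.5% below. The 8 neuron markers had a median slope of -0.41, near that of the members, with 0 called and 3 below 0 at an unadjusted p under 0.05. The 5 astrocyte markers had 0.09, with 0 called and 1 above at that level, and the 6 measured oligodendrocyte markers -0.30, with 0 called and 2 below. The 6 measured endothelial markers had 0.11, with 1 called above. The 8 measured olfactory bulb and neuroblast markers had a median slope of 0.85, with 1 called above and sums of 9.29 to 11.28 in the controls, 9.60 to 10.31 with clozapine and 10.05 to 10.77 with haloperidol. The 5 measured microglia markers had a median slope of -0.71, with 1 called below and sums of 9.53 to 10.05, 9.70 to 10.01 and 9.63 to 9.87 in the same order. The part of these cells in the members' slopes was not tested. Without haloperidol 3 the median slope of the members was -0.37, and without haloperidol 2 it was -0.46.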

How the data were processed

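RNA from 9 forebrains, 1 per array, was read on Affymetrix U74Av2 arrays. The deposited table holds 1 log2 value per probe set and array. The submitters' processing notes name GCRMA, which corrects background by probe sequence, normalizes arrays to each other and summarises probes. Its version was not given in the sources used here. Arrays were grouped by title, and the design text calls the samples independent biological replicates. Of 12488 probe sets, 66 controls entered no test, and 7453 passed the filter. Symbols were updated by Entrez identifier through RefSeq's table of GRCm38.p6, which held all 35 members. Limma 3.58.1 in R 4.3.3 was fitted to all 9 arrays with 1 mean per treatment (6 residual degrees of freedom), and again with the gap as a covariate for the slope (5). Tests were two-sided, with Benjamini-Hochberg adjustment over the 7453 probe sets. With 3 arrays a side, the smallest two-sided exact permutation p is 0.1. Members, lists and tests were chosen with earlier results of these data known. Genes named are the members of each list with the lowest unadjusted p per comparison, and members with set roles. The main fits did not treat arrays of the same replicate number as pairs, and whether these numbers pair the arrays was not settled. Alternatives covered filters, scaling, priors, weights, probe sets, the block, the gap measure and each array left out; 2 joint removals were added after seeing the data.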

Additional observations from a re-analysis of the deposited data

Results flagged for a closer look

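The 18S ribosomal RNA control probe sets entered no comparison, and in haloperidol replicate 2 they gave a signal where the controls read at most 2.83. The 3′ probe set read 10.88, the 5′ one 9.35 and the middle one 8.97. The same array had a mean of the measured ribosomal proteins of -0.01 relative to their 9-array mean. Whether the 18S signal bears on the values of the ribosomal proteins was not tested.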

How the results depend on the processing

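For both drugs against the controls, between the drugs and over the 3 groups, the calls stayed at 0 of the members under each alternative run. The members' median moved beyond the replicate spread of 0.14 only for haloperidol with the gap as a covariate, to -0.14, and for clozapine minus haloperidol without haloperidol 2 and 3, to 0.18. The slope on the gap changed most. All probe sets called and members called were 193 and 1 with no filter, 1 and 0 with array weights, 1506 and 12 at an adjusted p of 0.10, 0 and 0 with the Gapdh gap alone, 857 and 2 with no group terms, 0 and 0 without haloperidol 2 and 3, and 0 and 0 without control 2 and 3. With 1 array left out they ranged from 0 to 1153 and from 0 to 10. The replicate number as a block gave 0 and 0. The members' median slope was -0.0672 with no filter, where all 35 members entered. It was -0.82 with the Gapdh gap alone and -0.74 without control 2 and 3. With 1 array left out it ranged from -0.70 to -0.33. Same-numbered arrays had correlations of -0.597 to 0.697 in their deviations from the group means, and 5 of 9 arrays correlated best with one of their own number. The planned comparison with protein length was not run. Rpl32 has the signal closest to the filter among the measured members, and the 11 members below the filter have no level here.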

Other observations

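The 11 members below the filter varied together, as other dim probe sets did. Their mean was 2.43 in clozapine 2, the highest array, 2.23 in haloperidol 3, the lowest, and 2.30 to 2.40 in the other 7. The 1864 dimmest tested probe sets were also highest in clozapine 2, at 0.10 relative to their 9-array means, and lowest in haloperidol 3, at -0.11. The 55 pairs among the 11 members below the filter had a median Pearson r of 0.952 over the 9 arrays. For the 276 pairs of the 24 measured members it was 0.335, and both are given as a description. Rps27, a zinc-binding protein of the small subunit, read 1.46 to 1.56, Rpl35a, of the large subunit, 1.38 to 1.56, and Rps13, of the small subunit, 2.58 to 3.07, the last in control 3.

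Among other genes, those whose deviations from the group means were most like the members' mean were Stk16, a membrane-associated kinase, Angel2, Psmd13 and Psmc3, of the proteasome's regulatory particle, Brap, Lancl1, Fibp and Yipf1. Their Pearson r over the 9 arrays ran from 0.978 to 0.992, and their slopes on the gap from -0.87 to -0.46. They were picked from all tested genes by this measure, which is a description.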
